A study of Mus musculus with 48 samples.

Results

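The genes described here were picked to cover the synaptic vesicle and release machinery. Its proteins dock vesicles at the presynaptic membrane, fuse them with it and take them back. The rule used only names in the platform annotation, and it was chosen with earlier results of these data known. A gene was taken if its symbol begins with Syt, Stx, Vamp, Cplx, Snap, Sv2 or Rab3, or if it is one of 13 further names, among them Syn2, Syp, Nsf, Napa, Napb, Bsn and Dnm1. The rule found 58 genes, on 76 probe sets, among 8251 genes with a probe set that names 1 gene. For each gene the probe set with the highest mean intensity was used, and it was the same probe set in both tissues for all 58 genes. Some of the genes share letters with release genes and are not known as such. Rab31, Rab33a, Rab33b, Rab34 and Rab35 are other small GTPases, and Snapc2 and Snapc3 belong to a complex for transcription of small nuclear RNA genes. These 7 of the 58 genes are called taken by their letters. A further 11 syntaxin or Snap genes and 5 Vamp genes are not the SNAREs of vesicle release named below. Some of them, such as Stx6 and Stx8, belong to other membranes of the cell. All 58 are called release genes for short. Syn1, Sv2a, Sv2b, Unc13a, Amph, Slc17a6 and Slc17a7 were not analysed here.

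The study, on associative and nonassociative learning, hybridised total RNA of mouse hippocampus and amygdala to 48 one-colour Affymetrix arrays. Each array carries an arm code, CS, FC or NH. No label explains these codes, and strain, age and time of dissection are not given. They can be read as exposure to the conditioned stimulus, fear conditioning and naive home cage, and the codes are kept throughout. Hippocampus had 8 CS, 8 FC and 10 NH arrays, and amygdala had 6 CS, 6 FC and 10 NH arrays. No label ties an array to an animal, so the arrays of a group may be technical repeats, and p-values then cover nothing beyond their spread. The number in the title of each of the 22 amygdala arrays begins with its batch, and what follows can be split into a pair of numbers. Read in this way, both numbers were also titles of hippocampus arrays for 8 of them and 1 of the numbers was for 1 more, always of the same arm, 17 hippocampus arrays in all. An amygdala array may thus hold RNA pooled from a pair of animals whose hippocampi were also measured, which the labels do not state.

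A synaptic vesicle fuses when Vamp1 or Vamp2, the SNARE proteins on the vesicle, zip together with syntaxin (Stx1a) and Snap25 on the plasma membrane. Synaptotagmins such as Syt1 sense calcium and trigger the fusion, complexins clamp and prime the SNARE bundle, and Nsf with its adaptors Napa and Napb takes the spent bundle apart. Rab3 proteins and Bsn, a scaffold of the active zone, place vesicles where calcium enters, and Dnm1 pinches membrane off for recycling.

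The tissues appear to have been normalized apart, since array medians of intensity were 76.5 to 80.8 in hippocampus and 52.3 to 56.1 in amygdala. Tissues are therefore compared by the percentile of a probe set within its array, over 12422 probe sets, and with no test, because tissue and processing batch cannot be told apart. The labelled tissues showed in their markers: Neurod6, a transcription factor of hippocampal pyramidal neurons, lay at percentile 82.2 in hippocampus and 35.0 in amygdala, and the neuropeptide gene Tac2, a marker of the amygdala, at 61.2 and 78.0. Of 4 markers of amygdala and piriform cortex, Tac2 and Cdh13 had all amygdala arrays above all hippocampus arrays, Rspo2 had the reverse (55.2 and 39.8), and Npy2r overlapped. Of 6 hippocampal markers 4 had all hippocampus arrays above all amygdala arrays, and 2 (Wfs1 and Calb1) the reverse. Other cell types moved with tissue as well. Of 8 oligodendrocyte markers 5 were higher in every hippocampus array, and the mean percentile over the list was 68.7 to 74.3 in hippocampus arrays and 59.3 to 64.2 in amygdala arrays. Over 10 general neuron markers it was 83.1 to 89.4 and 85.1 to 89.1. Over 7 interneuron markers it was 77.4 to 79.4 and 80.8 to 84.1, with 2 higher in every amygdala array and 1 in every hippocampus array. Over 3 choroid plexus markers it was 44.8 to 78.3 and 30.7 to 33.5, and over 3 striatum markers 44.6 to 47.1 and 48.7 to 51.0. Over 9 markers of thalamus and hypothalamus it was 67.5 to 72.0 and 71.9 to 76.1. Of these, 1 was higher in every amygdala array (Trh, 57.2 and 83.7) and 0 in every hippocampus array. The lists for astrocytes, microglia, blood and vessels overlapped. Whether cell composition had a part in the tissue differences below was not tested, and in whole tissue fewer cells of a type and less RNA per cell cannot be told apart.

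Stx1a, the syntaxin of the neuronal plasma membrane, stood higher in amygdala than in hippocampus, together with the synaptotagmins Syt5 and Syt9, while Syt2 stood higher in hippocampus. These 4 genes were the only ones of the 58 whose percentiles did not overlap between the tissues. The other 54 overlapped. Over all 8251 genes, 2.76% were higher in every amygdala array and 2.29% in every hippocampus array, 5.05% together, so the count of 3 and 1 among the release genes was near the background. The mean percentile was higher in amygdala for 31 genes and in hippocampus for 27, with a median difference of 0.110 percentile points against -0.0016 over all genes.

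The Stx1a percentile ranged from 75.1 to 84.4 in the 26 hippocampus arrays, with a median of 81.6, and from 89.1 to 93.4 in the 22 amygdala arrays, with a median of 91.9. Its means differed by 10.4 points (81.3 ± 2.37 and 91.7 ± 1.29, SD). No arm of hippocampus reached the lowest amygdala array. Syt5, a calcium-binding synaptotagmin, ranged from 91.9 to 94.2 in hippocampus, median 93.5, and from 95.2 to 97.3 in amygdala, median 96.4. The gap between the highest hippocampus and the lowest amygdala array was thus narrow, and the means differed by 3.08 points. Syt9 ranged from 10.9 to 19.8 in hippocampus, median 15.9, and from 20.1 to 25.8 in amygdala, median 22.7. Its probe set was dim, below the filter for testing in both tissues, and its ranges all but met.

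Syt2, a fast calcium sensor close to Syt1, went the other way. It ranged from 54.9 to 70.3 in hippocampus, median 60.6, and from 47.1 to 54.5 in amygdala, median 49.7, a difference of means of -11.1 points. The highest hippocampus value came from NH replicate 100, an array that also stood apart for Syt1. A second, dimmer Syt2 probe set did not repeat the separation: it averaged percentile 26.1 in hippocampus and 25.2 in amygdala, and its ranges overlapped. The other 3 genes had no second probe set.

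**Figure D1:**
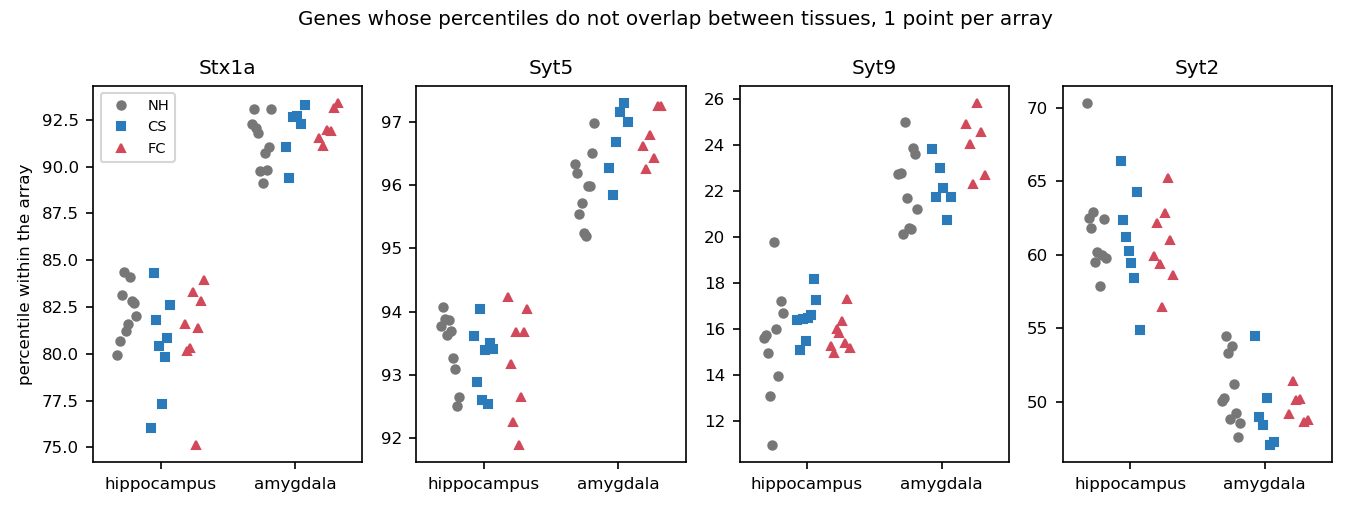
Percentile within the array (vertical axes, each with its own range) of the 4 genes whose tissues do not overlap, with 1 point per array, grouped by tissue on the horizontal axis and by arm in colour and shape. Stx1a, Syt5 and Syt9 lie higher in all 22 amygdala arrays, and Syt2 lies higher in all 26 hippocampus arrays.

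The promoters of these genes are shown because the percentiles of their brightest probe sets did not overlap between the tissues. The 250 bases before the annotated start are from RefSeq on GRCm38.p6, and capitals mark the GC box GGGCGG on either strand. Stx1a lies at chr5:135023232-135023481 on the plus strand and holds 1 GC box. Syt9 lies at chr7:107370540-107370789 and Syt2, the first of 2 annotated starts, at chr1:134646362-134646611, both on the plus strand and each with 3 GC boxes.
Stx1a: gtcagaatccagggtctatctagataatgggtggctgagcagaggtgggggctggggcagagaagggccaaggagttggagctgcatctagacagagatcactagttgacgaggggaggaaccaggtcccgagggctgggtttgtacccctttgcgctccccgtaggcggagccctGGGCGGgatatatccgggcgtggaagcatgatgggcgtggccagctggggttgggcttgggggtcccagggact
Syt9: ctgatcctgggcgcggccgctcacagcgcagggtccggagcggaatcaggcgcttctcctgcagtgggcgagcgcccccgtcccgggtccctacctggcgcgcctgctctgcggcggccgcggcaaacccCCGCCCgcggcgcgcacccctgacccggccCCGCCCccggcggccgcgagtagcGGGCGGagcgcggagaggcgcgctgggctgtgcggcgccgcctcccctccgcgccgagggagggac
Syt2: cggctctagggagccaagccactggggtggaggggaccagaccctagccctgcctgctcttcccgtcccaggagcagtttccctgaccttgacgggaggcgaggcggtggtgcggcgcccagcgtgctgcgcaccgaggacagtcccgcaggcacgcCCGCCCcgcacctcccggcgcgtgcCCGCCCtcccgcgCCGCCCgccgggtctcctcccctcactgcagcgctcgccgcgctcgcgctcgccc
Of the 58 genes 49 matched an entry, and Syt5 was not among them. The GC box was found in 34 of the 49 (69.4%) and in 35.4% of 27025 genes with an entry. GC content had a median of 60.4% in the windows of the release genes and 52.4% in all windows. The letters TGACG, the shorter site of cAMP response elements, occurred on either strand in 17 (34.7%) against 19.8%, the full palindrome TGACGTCA, which holds TGACG, in 1 (Stxbp3, 2.04%) against 1.77%, and TATAAA in 3 (6.12%) against 14.3%. A gene counted if any of its windows held the letters, with 66 windows for the 49 genes and 32851 for the 27025. The 27025 are all genes with an entry and not only those on the array. The shares are therefore not on a like background, and those of the genes on the array were not computed. The counts describe letters and not bound sites.

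Most of the core fusion machinery sat at nearly the same place in both tissues. Snap25, the partner of Stx1a on the plasma membrane, averaged percentile 99.7 in hippocampus and 99.5 in amygdala. Vamp2, the main vesicle SNARE of forebrain neurons, had 99.5 in both, Dnm1 99.9 in both, and Nsf 98.5 in both. Probe sets this close to the top of the array have little room to differ by percentile. Cplx1 had 97.1 in both tissues, Syt1 95.7 and 95.8, Vamp1 77.0 and 76.3, and Napb 92.3 and 92.1. The hippocampal mean of Syt1 includes the pair of low arrays described below, and its medians were 97.1 in hippocampus and 96.7 in amygdala. The vesicle proteins Syn2 and Syp had 95.5 and 89.7 in hippocampus and 96.7 and 91.3 in amygdala. A dimmer Vamp2 probe set had 84.1 and 89.9, with overlapping ranges.

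Larger but overlapping differences were seen among genes of trafficking and of the active zone. Bsn had 55.6 ± 3.88 in hippocampus and 62.5 ± 2.42 in amygdala, and Rab3a, the main vesicle Rab, had 74.0 ± 1.70 and 79.3 ± 1.68. Lower in amygdala were Stx6, a syntaxin of the trans-Golgi network (68.4 ± 2.36 and 59.9 ± 2.07), and Stxbp3, a syntaxin-binding protein (40.9 ± 4.87 and 33.7 ± 3.55). Rab3ip, an exchange factor for Rab proteins, had 51.4 ± 2.53 and 43.4 ± 2.43, but its second probe set had 40.5 and 41.8, in the opposite direction. Rab35, taken by its letters, had 53.3 ± 3.44 and 60.9 ± 2.39. Probe sets of Vamp4 also disagreed, with 4.72 points higher in amygdala for the brighter and -3.06 for the other, as did those of Vamp7, with 0.834 and -10.0 points. By role, 2 of 13 synaptotagmins, counted with the synaptotagmin-like Sytl4, were higher in every amygdala array and 1 in every hippocampus array. Of 2 neuronal membrane SNAREs 1 was higher in every amygdala array, and no other role held a gene whose ranges were apart. These are the same 4 genes as above, beside 2.76% of all genes higher in amygdala and 2.29% in hippocampus. A concentration in any role was not tested.

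**Figure D2:**
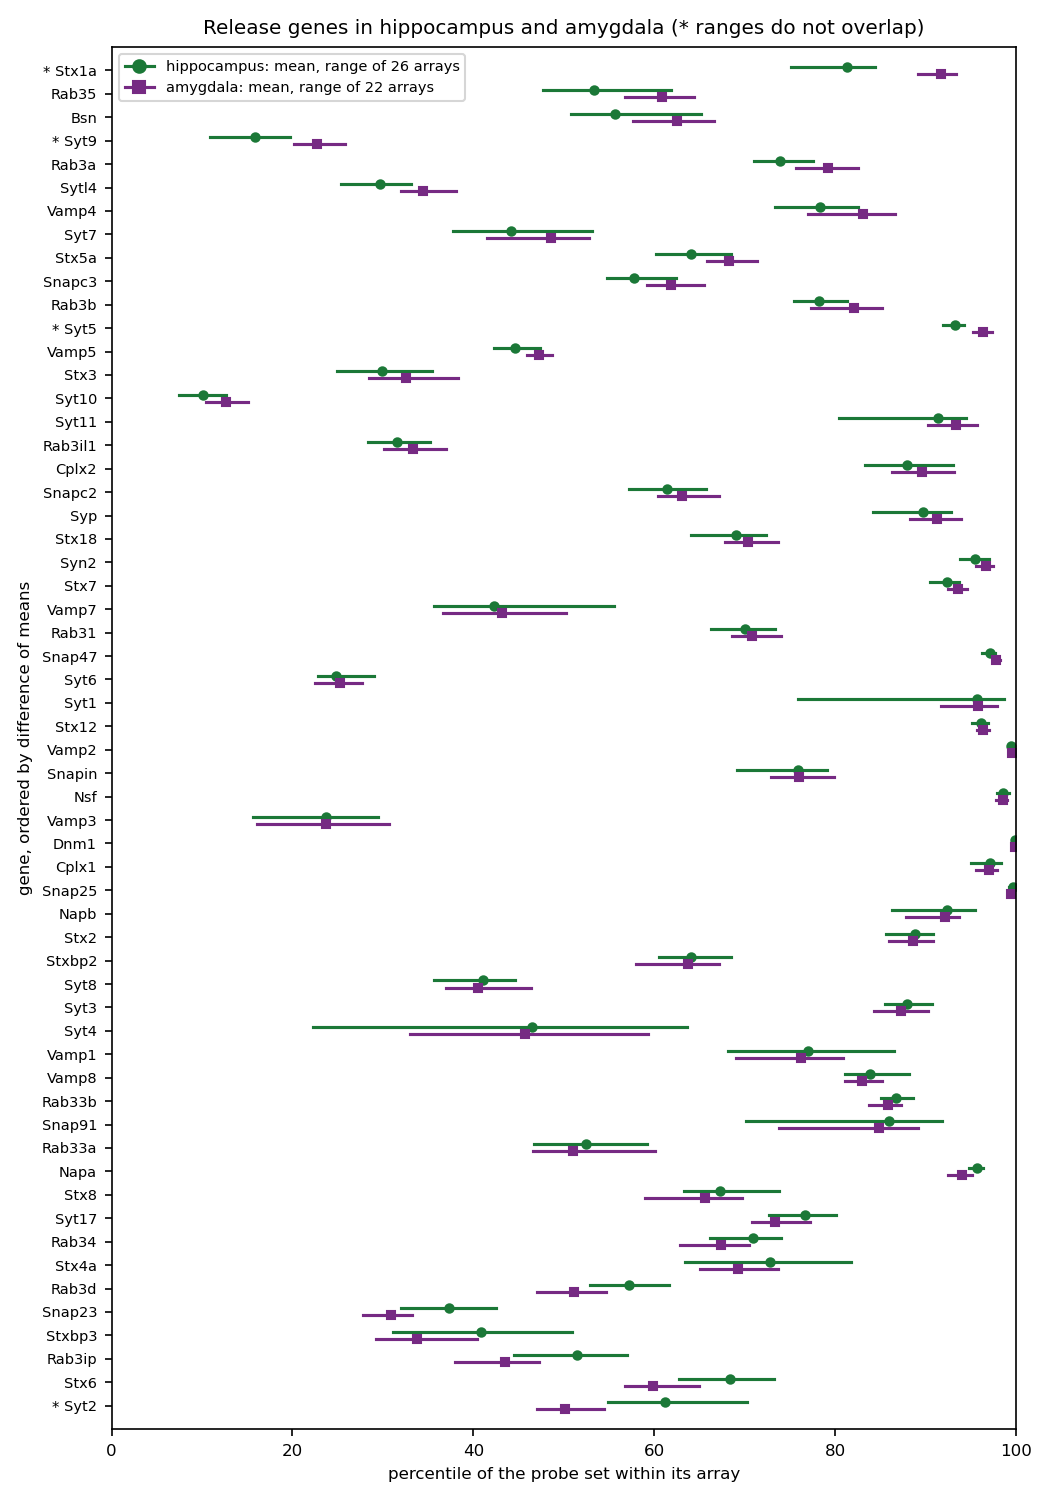
Percentile of the probe set within its array (horizontal axis) for the 58 genes (vertical axis, ordered by the difference of tissue means), with the mean as a symbol and the lowest to the highest array as a line. Asterisks mark the 4 genes with separate ranges, and Syt1 has the long hippocampal line that reaches down to 75.9.

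In NH arrays alone, with fewer arrays to overlap, 6 release genes were higher in every amygdala array (5.04% of all genes) and 4 in every hippocampus array (5.14%), 10 of 58 in all beside 10.2% of all genes. The added genes were Rab35, Vamp4 and Sytl4 on the amygdala side, and Rab3ip, Napa and Stx6 on the hippocampus side.

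A list of 104 names that the rule did not use held 63 other genes of release and recycling with a probe set. Of these, 3 were higher in every amygdala array and 0 in every hippocampus array, beside 2.76% and 2.29% of all genes. A difference from these shares was not tested. Ap2b1, a subunit of the clathrin adaptor, had 82.1 and 94.2. Slc32a1, the vesicular GABA transporter, had 94.2 and 97.6, and Sh3gl3, an endophilin, had 73.9 and 84.8.

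Syt1, the calcium sensor for synchronous release, was near its usual level in 24 of the 26 hippocampus arrays and far below it in a pair. The log2 intensity was 7.61 in CS replicate 109 and 7.57 in NH replicate 100, both of processing batch 4. In the other 24 arrays it ranged from 9.56 to 10.52 with a median of 9.83 (9.89 ± 0.263, SD). The means differed by 2.30 on the log2 scale, 4.93-fold. These 2 arrays came from different arms, and the remaining batch 4 arrays of the same arms had 9.90 and 9.85 (CS) and 9.62 (NH).

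Few transcripts shared this pattern. Over 12422 probe sets both arrays were the lowest of hippocampus with a gap of more than 1 log2 unit to the next array at 2, Syt1 (gap 1.95) and Pkia (1.03), which encodes an inhibitor of protein kinase A. A gap above 0.5 was seen at 24 probe sets, of which Syt1 was the only release gene, and both arrays were the highest by that margin at 1. The log2 difference between the 3' and 5' control probe sets of Gapdh, a measure of RNA integrity, was 0.485 in NH replicate 100, the highest of hippocampus, and 0.36 in CS replicate 109, against a median of 0.0875. CS replicate 105 had 0.376 with Syt1 at 9.90. The same measure for Actb was 1.175 in NH replicate 100, the highest of hippocampus, and 1.106 in CS replicate 109, the next highest. Its median was 0.757, and CS replicate 105 had 0.962. NH replicate 100 also had the lowest median correlation with the other arrays (0.9897). The part of RNA quality in the low Syt1 values was not tested. In amygdala the lowest Syt1 value was 8.31, in NH replicate 28892, and the highest was 9.65. Syt1 had the largest residual SD of all tested release genes in both tissues, 0.603 in hippocampus and 0.286 in amygdala. The median over release genes was 0.115 and 0.101, beside 0.113 and 0.105 over all probe sets.

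Release genes varied between the processing batches named in the labels. In limma's moderated F test of the batch terms, with arms in the model, 16 of 50 tested genes (32%) passed an adjusted p of 0.05 in hippocampus, where 25% of all 7454 probe sets did. In amygdala 18 of 49 (36.7%) passed, against 26.2% of all probe sets. Whether the release genes differ from other genes in this was not tested. The comparison matters for every arm difference that follows, since the arms were spread unevenly over batches. Hippocampus batch 7 and amygdala batch 1 held 6 NH arrays each and nothing else.

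In hippocampus the complexin gene Cplx2 varied most clearly between batches (adjusted p = 1.81e-06, limma). It ran from 8.59 to 9.02 with a median of 8.69 in batch 4, from 8.21 to 8.47 with a median of 8.37 in batch 5, from 8.35 to 8.64 with a median of 8.52 in batch 6, and from 7.95 to 8.09 with a median of 8.03 in batch 7. All arrays of batch 7 lay below all others. Stx8, a syntaxin of late endosomes, was highest in batch 4 (7.28 to 7.46, median 7.34), above every array of batch 5 (6.89 to 7.11), batch 6 (6.92 to 7.14) and batch 7 (6.95 to 7.23), with an adjusted p of 4.19e-05 in limma. Batch 4 was low instead for Syt4, an unusual synaptotagmin that does not bind calcium in the way of Syt1 and is known as inducible by activity. Syt4 had 4.82 to 6.02 in batch 4 (median 5.53) and 6.08 to 6.95 in batch 5 (median 6.52), with the ranges of those batches apart (adjusted p = 6.76e-05, limma). It had 6.11 to 6.58 in batch 6 and 5.55 to 6.31 in batch 7.

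Snap25 was also lower in batch 4 (11.01 to 11.49) than in batch 6 (11.59 to 11.69), by 0.32 after adjustment for arm (adjusted p = 0.00298). Napb, the neuronal adaptor of Nsf, was lowest in batch 4 and highest in batch 5, by 0.52 (adjusted p = 0.00488), and Snap91, a clathrin assembly protein of nerve terminals, by 0.68 (adjusted p = 9.51e-04). Nsf and Vamp1 were highest in batch 4. In all, 10 of the 16 genes were highest in batch 4 and 5 were lowest in it. The rest of the 16 were Rab35, Syt7, Vamp8, Bsn, Stxbp2, Snapc2, Syt3 and Syt1. Without CS replicate 109 and NH replicate 100 the count was 20 of 50 (40%), beside 27% of all probe sets. Cplx1, Syn2, Syt11, Stx18, Rab33a and Rab33b were then added, Vamp8 and Syt3 were lost, and the range of Syt1 between batches shrank from 1.06 to 0.51.

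**Figure D3:**
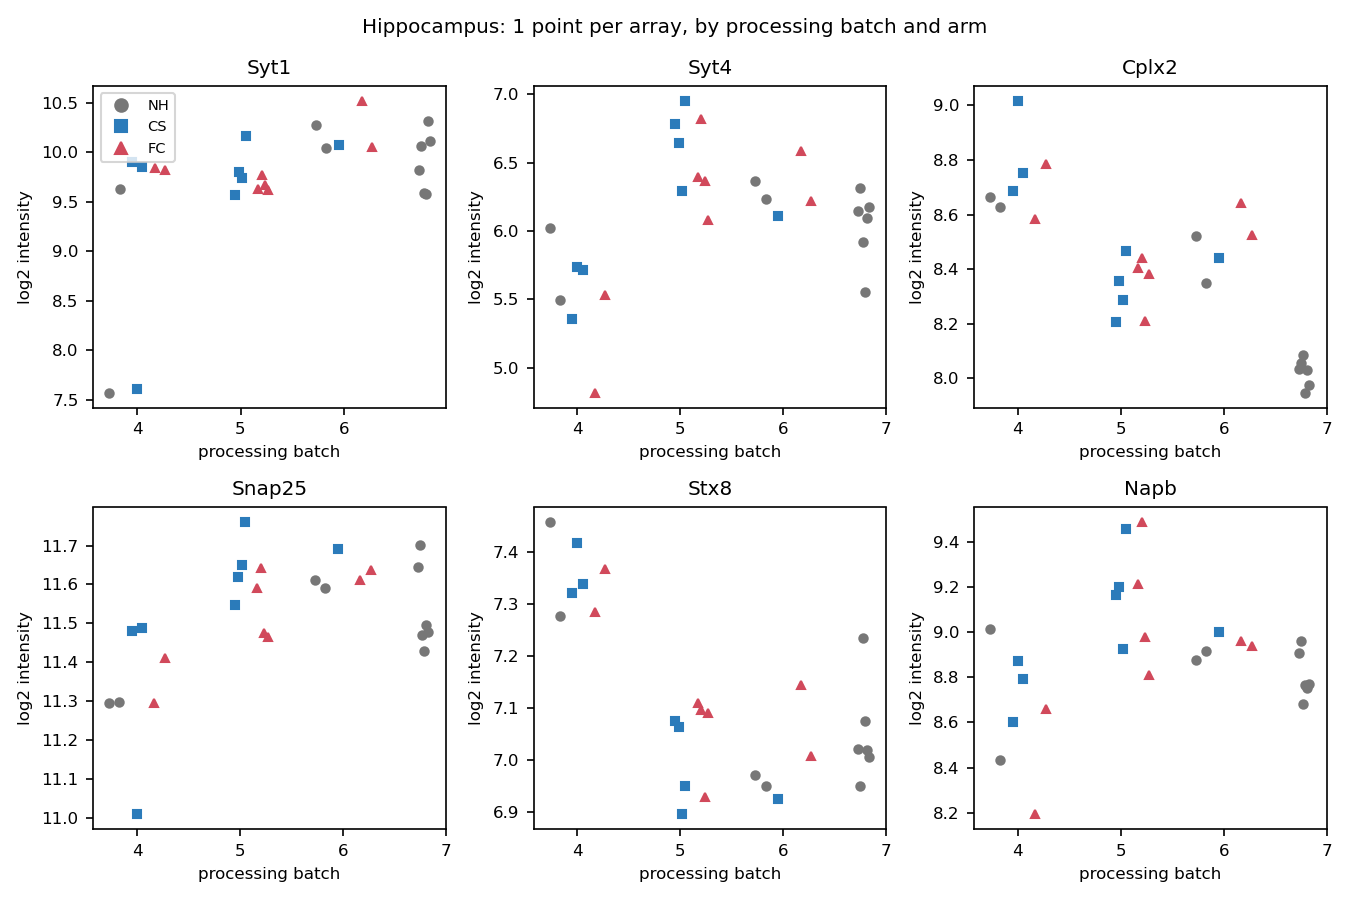
Log2 intensity (vertical axes) of 6 release genes in hippocampus by processing batch (horizontal axes), with 1 point per array and arms in colour and shape. The pair of arrays at 7.57 and 7.61 for Syt1 lies in batch 4, the 6 NH arrays of batch 7 are the lowest for Cplx2, and batch 4 is the highest for Stx8.

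In amygdala batches 1 and 3 were the usual extremes. Of the 18 genes 11 were highest in batch 3, and 11 were lowest in batch 1. Syt11, a synaptotagmin without calcium binding, had 8.16 to 8.39 in batch 1 (median 8.25), 8.48 to 8.85 in batch 2 (median 8.61) and 8.67 to 9.03 in batch 3 (median 8.84), with a range of 0.55 after adjustment for arm (adjusted p = 8.81e-04, limma). Batch 1 lay below all other arrays. Syt5 had 8.88 to 9.14, 9.06 to 9.35 and 9.32 to 9.54 in the same order (adjusted p = 0.00176), so that the gene that separated the tissues also moved with batch within amygdala. Nsf had 9.64 to 9.89, 9.85 to 10.23 and 10.11 to 10.26 (adjusted p = 0.00340), and Rab3b, a close relative of Rab3a, 7.14 to 7.32, 7.36 to 7.66 and 7.46 to 7.68 (adjusted p = 0.00276).

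The opposite order was seen for Syt1, which had 9.30 to 9.65 in batch 1, 8.31 to 9.54 in batch 2 and 8.50 to 9.06 in batch 3 (adjusted p = 0.00513), for Syt4, and for Snap25 and Snapin, a binding partner of Snap25. Syp, Syn2, Vamp2, Napa and Cplx1 were highest in batch 3 and lowest in batch 1, by 0.23 to 0.37. Stx1a and Snapc2 were highest in batch 3 and lowest in batch 2, Cplx2 and Rab35 were highest in batch 2 and lowest in batch 1, and Stx7 was highest in batch 2 and lowest in batch 3. Oligodendrocyte markers moved with batch too: 4 of 5 tested passed, and the mean log2 intensity over the 8 with a probe set was 6.50 to 6.73 in batch 1, 6.50 to 6.76 in batch 2 and 6.44 to 6.59 in batch 3. Of 10 general neuron markers 3 passed in amygdala and 4 in hippocampus. Their mean log2 intensity in amygdala was 8.59 to 8.80, 8.55 to 8.85 and 8.64 to 8.77 in batches 1, 2 and 3. In hippocampus it was 8.87 to 9.09, 8.75 to 9.17, 8.99 to 9.17 and 8.91 to 9.14 in batches 4 to 7. The part of cell composition in the batch differences was not tested.

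**Figure D4:**
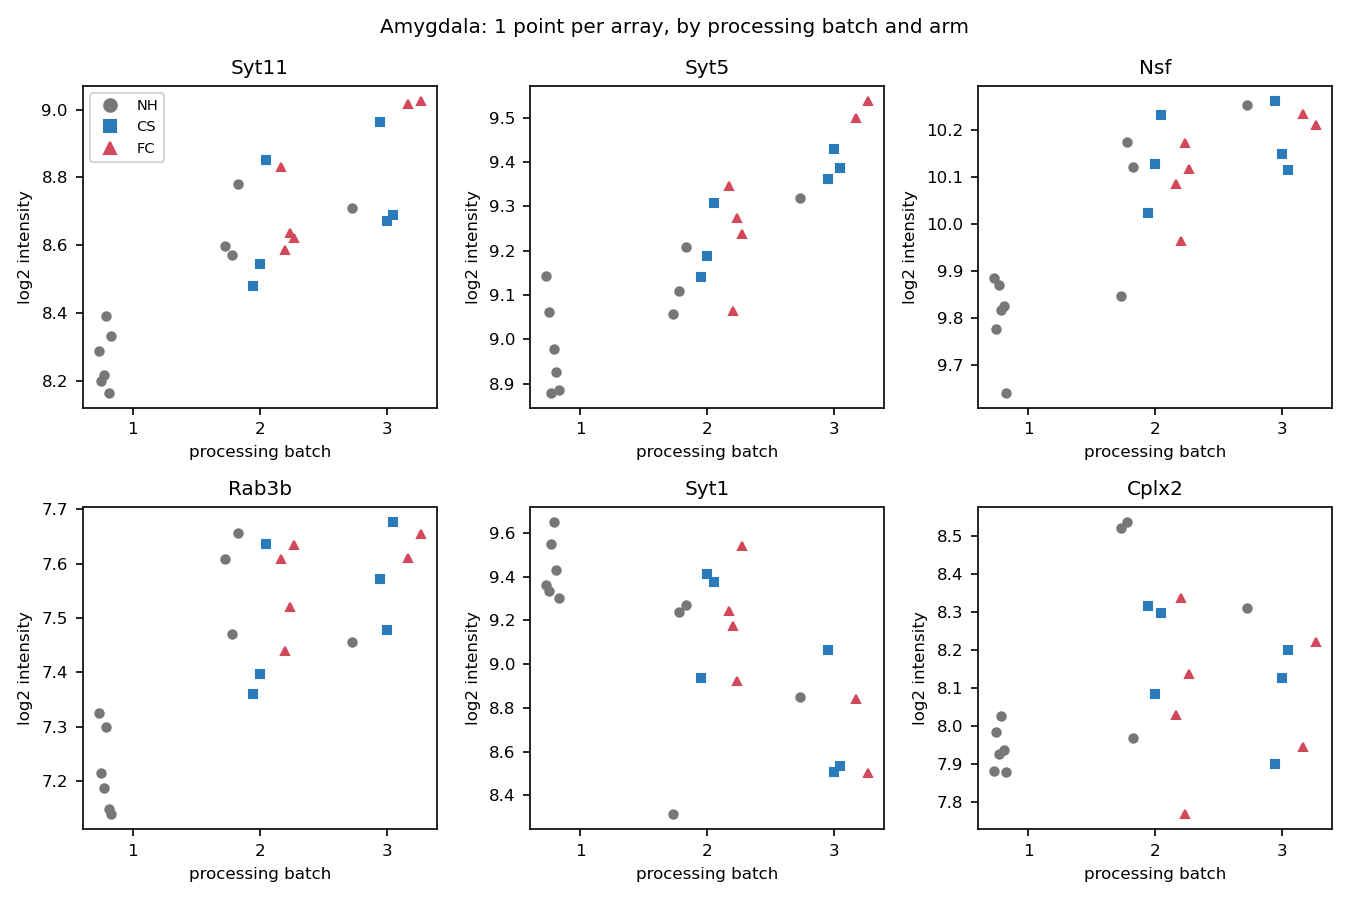
Log2 intensity (vertical axes) of 6 release genes in amygdala by processing batch (horizontal axes), with 1 point per array and arms in colour and shape. The 6 NH arrays of batch 1 are the lowest for Syt11 (8.16 to 8.39) and Rab3b (7.14 to 7.32), and Syt1 is lower in all arrays of batch 3 than in any of batch 1.

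Within NH arrays alone, where no other arm entered, 1 of 50 release genes passed the batch test in hippocampus (Cplx2, adjusted p = 0.00367, limma) against 0.282% of all probe sets. In amygdala 4 of 49 passed (Syt11, Rab3b, Syt4 and Nsf) against 3.65%. Without NH replicate 28892, which was low for Syt1, 13 of 49 (26.5%) passed in amygdala with all arms, beside 22.9% of all probe sets, and Stx1a, Snap25, Cplx2, Snapc2 and Rab35 no longer did. Of other release genes off the list, 15 of 59 tested passed in hippocampus (25.4%) and 18 of 59 in amygdala (30.5%), with all arms and arrays. In the same test 25% and 26.2% of all probe sets passed, and 32% and 36.7% of the release genes.

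No release gene passed the test of a difference between arms in hippocampus. The comparisons of CS and FC with NH ask how the tissue responded to each session, and FC with CS asks what the fear conditioning arm added. All differences are from limma on log2 intensity with batch as a block, where 1 is a factor of 2. CS minus NH gave 0 of 50 genes at an adjusted p of 0.05, where 0.0134% of all probe sets passed, and 1 gene (Rab35) at an unadjusted p below 0.05. FC minus NH gave 0 of 50, against 0.0134%, and 2 at the unadjusted threshold (Rab35 and Bsn). FC minus CS gave 0 of 50 against 0%, and 0 at the unadjusted threshold. Over all 7454 probe sets that threshold was met by 108, 169 and 57 in the same order. The differences were spread about 0, with 27, 26 and 21 of the 50 positive in the 3 comparisons. Intervals of 95% lay within 0.5 log2 units of 0 for 48, 47 and 49 of the genes, so larger changes were outside the interval for most of them. Only 4 NH arrays per tissue shared a batch with CS or FC, and every difference from NH rests on them.

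Syt1 had the largest estimates. Its log2 intensity in hippocampus was 7.61 to 10.16 with a median of 9.83 in CS, 9.62 to 10.52 with a median of 9.79 in FC, and 7.57 to 10.32 with a median of 9.93 in NH. The groups overlapped, and CS and NH each held 1 of the low arrays. CS minus NH was 0.39 ± 0.355 (SE) and FC minus NH 0.54 ± 0.351, with intervals of -0.34 to 1.12 and -0.19 to 1.26. Without the low pair these became 0.16 ± 0.149 and 0.10 ± 0.142. Syt11 behaved in the same way: it had 0.28 ± 0.165 and 0.29 ± 0.163, and -0.05 and -0.00 without NH replicate 100, whose value of 7.85 was the lowest of its arm.

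Bsn, the active zone scaffold, had 6.33 to 6.85 in CS (median 6.38), 6.30 to 7.01 in FC (median 6.62) and 6.32 to 6.85 in NH (median 6.56). The 3 arms covered nearly the same range. FC minus NH was 0.21 ± 0.0977, and FC minus CS 0.12 ± 0.0746, of which batch 4 alone gave 0.35 and batch 6 alone -0.17. Rab35 had 6.16 to 6.88, 6.25 to 6.70 and 6.23 to 6.54 in CS, FC and NH, again overlapping, with 0.17 ± 0.0719 and 0.16 ± 0.0710 against NH. Its FC minus NH was -0.00 in batch 6 alone. Nsf had 0.13 ± 0.0797 for CS minus NH, Rab34 0.09 ± 0.0493 for FC minus CS and Rab3b -0.07 ± 0.0492 for FC minus CS.

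The central SNAREs gave small estimates in hippocampus on their brightest probe sets. Snap25 had 11.01 to 11.76 in CS (median 11.58), 11.30 to 11.64 in FC (median 11.53) and 11.29 to 11.70 in NH (median 11.49), overlapping throughout. Its differences were 0.07 ± 0.0777 for CS minus NH, 0.02 ± 0.0767 for FC minus NH and -0.05 ± 0.0586 for FC minus CS. The median SE over release genes was 0.0764, 0.0755 and 0.0576 in the same order. Without CS replicate 109 and NH replicate 100 Snap25 had 0.14 ± 0.0683, 0.03 ± 0.0651 and -0.10 ± 0.0460. The last had an unadjusted p of 0.0326 and an adjusted p of 0.9999 in limma. Vamp2 had medians of 11.24, 11.20 and 11.19 in CS, FC and NH and a difference of -0.09 for each arm against NH. Its dimmer probe set gave 0.20 ± 0.216 and 0.27 ± 0.214, in the other direction and with wide error. The Napb probe sets also disagreed for FC minus NH, with -0.09 for the brighter and 0.19 for the other. Stx1a had 0.02 and 0.06 against NH, Syn2 0.11 and 0.17, Syp -0.12 and -0.18, and Syt4 -0.07 and -0.27. Dnm1 had the smallest residual SD of the tested genes, 0.0514, and differences of -0.06 and -0.08.

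In amygdala no release gene passed either, while small estimates of either sign were seen for Rab31, Cplx2, Rab3ip and Syt5 in FC. CS minus NH gave 0 of 49 genes against 0.0134% of all probe sets, and 1 at an unadjusted p below 0.05 (Stx2). FC minus NH gave 0 of 49 against 0.0939%, and 4 at the unadjusted threshold. That 0 changed under 2 settings: with array weights 5 of 49 passed (Rab31, Cplx2, Syt5, Rab3ip and Cplx1), but so did 12.2% of all probe sets, and with no batch term 2 passed (Syt5 and Syt11) beside 2.83%. FC minus CS gave 0 of 49 against 0%, and 0 at the unadjusted threshold. Over all 7454 probe sets that threshold was met by 292 for CS minus NH, 384 for FC minus NH and 92 for FC minus CS. Of the 49 genes 31, 31 and 26 had positive differences. Intervals lay within 0.5 log2 units of 0 for 48 genes in CS minus NH and for all 49 in the other comparisons.

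Cplx2 had 7.90 to 8.31 in CS (median 8.16), 7.77 to 8.34 in FC (median 8.08) and 7.88 to 8.54 in NH (median 7.98). The arms overlapped, and the medians of CS and FC lay above that of NH, while the difference within batches had the other sign. FC minus NH was -0.26 ± 0.103 with an interval of -0.47 to -0.04 and an adjusted p of 0.894, and batches 2 and 3 alone gave -0.27 and -0.23. With no batch term it was -0.02. Syt5 had 9.14 to 9.43 in CS (median 9.34), 9.06 to 9.54 in FC (median 9.31) and 8.88 to 9.32 in NH (median 9.06), where the low end of NH came from batch 1. FC minus NH was 0.13 ± 0.0605, and 0.27 with no batch term. Rab3ip had 0.15 ± 0.0672 and -0.07 on its second probe set. Rab31, taken by its letters, had the smallest adjusted p, 0.694, at 0.17 ± 0.0505, with -0.04 on its second probe set.

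Stx2, a syntaxin of the plasma membrane, had 7.82 to 8.03 in CS, 7.90 to 8.10 in FC and 7.94 to 8.19 in NH, with overlap, and -0.12 ± 0.0524 for CS minus NH. Vamp1 had 0.16 ± 0.0844 for CS minus NH, but -0.05 in batch 3 alone, and Syt7, a slow calcium sensor, had -0.16 ± 0.0880. For FC minus CS the smallest p-values belonged to Rab31 (0.08 ± 0.0455), Cplx1 (0.13 ± 0.0732) and Syt11 (0.12 ± 0.0710), none past the unadjusted threshold. Stx1a, which set amygdala apart, had 8.17 to 8.57 in CS (median 8.41), 8.20 to 8.63 in FC (median 8.41) and 8.03 to 8.50 in NH (median 8.28). Its arms overlapped, and it had 0.06, 0.14 and 0.08 for CS minus NH, FC minus NH and FC minus CS. Snap25 had 0.01, 0.00 and -0.01 and Vamp2 -0.07, -0.04 and 0.02 in the same order.

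**Figure D5:**
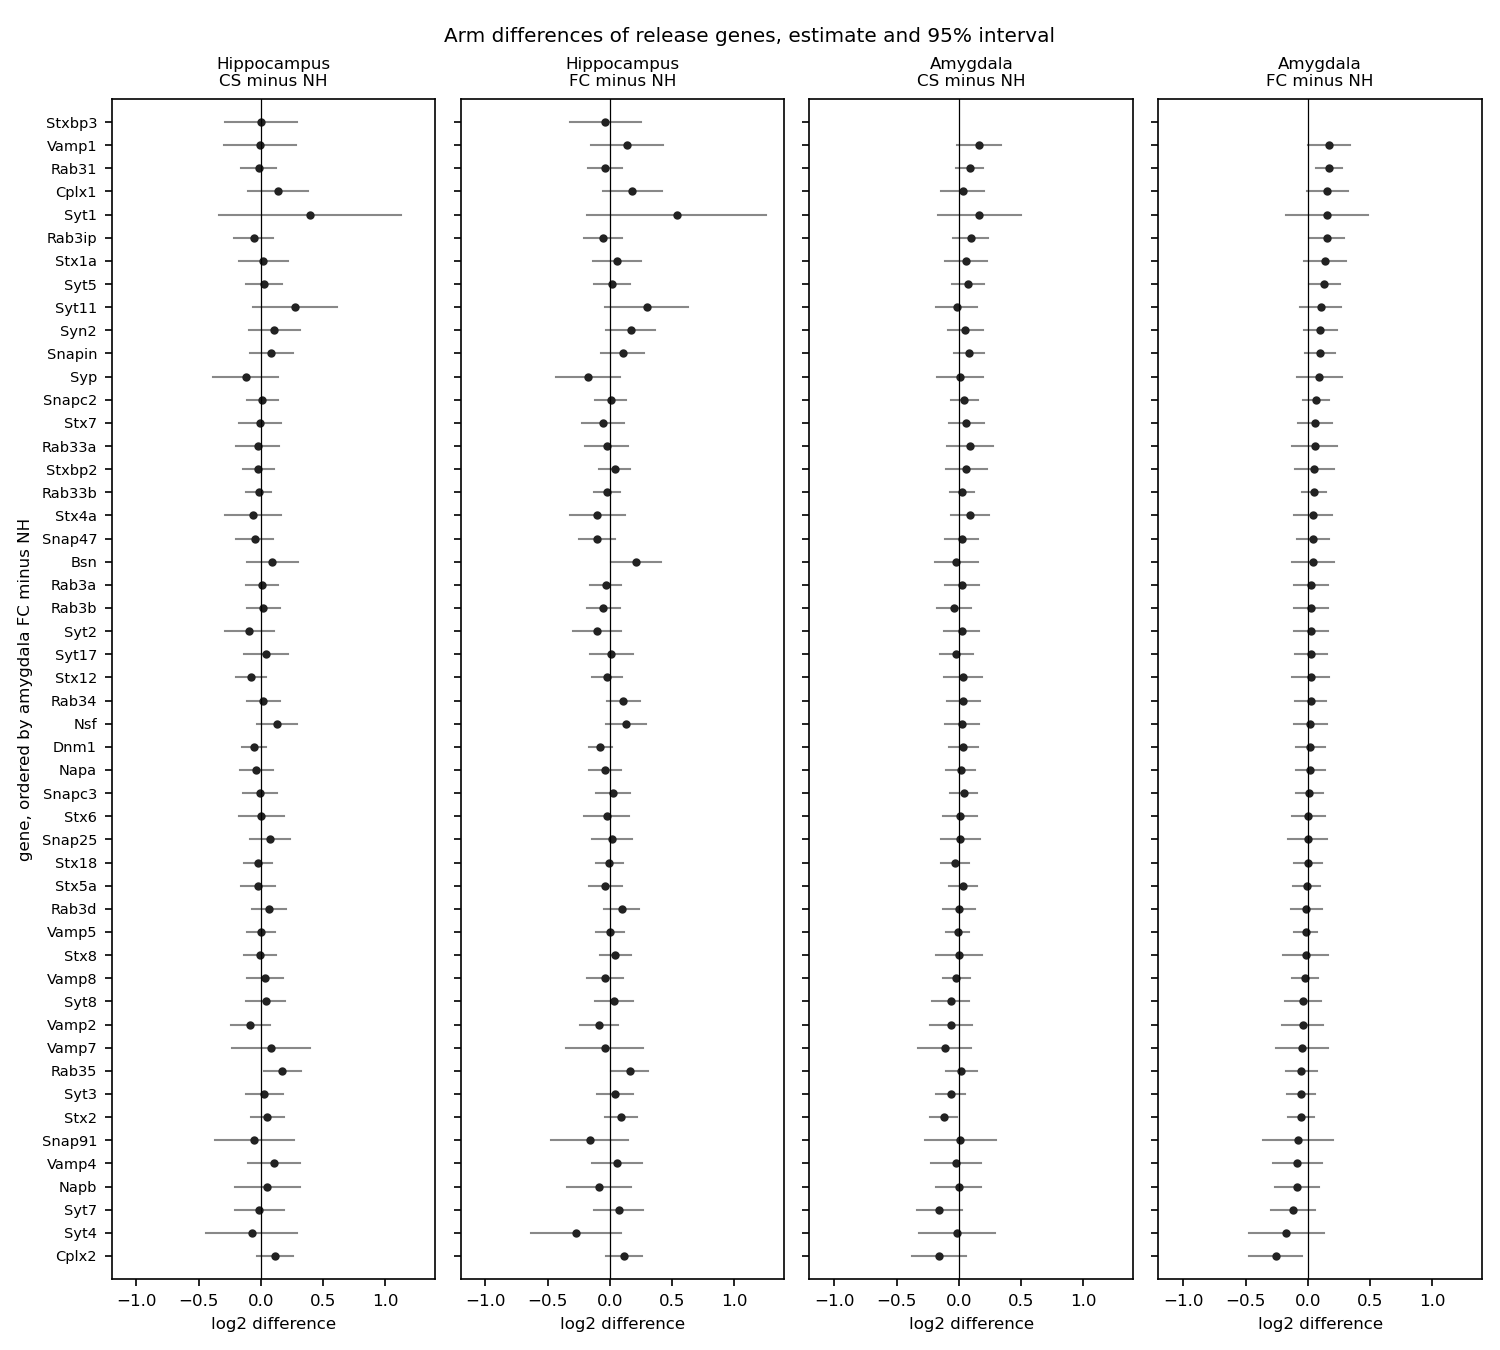
Log2 difference from NH (horizontal axes) in hippocampus and amygdala for the release genes tested (vertical axis, ordered by FC minus NH in amygdala), with the estimate as a point and its 95% interval as a line. Nearly all intervals include 0, and the long lines of Syt1 in hippocampus reach 1.12 and 1.26.

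Whether an arm difference differed between the tissues was tested by fitting all 48 arrays together and subtracting the hippocampal difference from the amygdalar one. Arrays of both tissues entered as independent, although the title numbers can be read as shared animals. Of 49 release genes 0 passed in each of the 3 contrasts, against 0% of 7242 probe sets. At an unadjusted p below 0.05 there were 2 genes for CS minus NH, 4 for FC minus NH and 0 for FC minus CS, beside 183, 248 and 99 probe sets. The lowest p belonged to Cplx2, whose FC minus NH was lower in amygdala than in hippocampus by a log2 difference of -0.37 ± 0.128 (adjusted p = 0.981, limma). Rab31 and Rab3ip had 0.21 each, and Rab35 -0.21.

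Of 59 other genes of release and recycling tested in each tissue, 0 passed in each of the 6 arm comparisons. The unadjusted threshold was met by 1, 1 and 2 in hippocampus and by 1, 1 and 0 in amygdala, for CS minus NH, FC minus NH and FC minus CS. Over all 7454 probe sets it was met by 108, 169 and 57 in hippocampus and by 292, 384 and 92 in amygdala. Ap2b1 had 0.33 ± 0.143 and 0.50 ± 0.141 against NH in hippocampus. Rabac1, a receptor for prenylated Rab proteins, had 0.15 ± 0.0548 for FC minus NH in amygdala, and Cacna1a, the pore of the P/Q-type calcium channel, had -0.16 ± 0.0707 for CS minus NH.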

How the data were processed

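The deposited values were intensity on a linear scale. The submitters' processing notes name RMA, the robust multi-array average; version and settings: not given in the sources used here. RMA gives all arrays a like distribution, so a global change of transcripts is hidden. Of 12488 probe sets 66 controls were left out, 10833 name 1 gene, 396 several and 1193 none. Symbols came from the platform annotation, and all 58 genes were in the RefSeq table. The log2 was taken with nothing added. The dimmest 40% of probe sets by mean were dropped per tissue, and 7454 stayed. This kept 50 of the 58 genes in hippocampus and 49 in amygdala. Rab3il1, Snap23, Stx3, Syt6, Syt9, Syt10, Sytl4 and Vamp3 fell below it in both tissues, and Stxbp3 in amygdala.

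Each tissue was fitted with limma 3.58.1 in R 4.3.3 (lmFit, eBayes) with arm and processing batch as fixed terms, two-sided, with Benjamini-Hochberg adjustment over all probe sets and a threshold of 0.05. In hippocampus the 8 CS arrays fell into batches 4 (3), 5 (4) and 6 (1), the 8 FC arrays into batches 4 (2), 5 (4) and 6 (2), and the 10 NH arrays into batches 4 (2), 6 (2) and 7 (6). In amygdala CS arrays fell into batches 2 (3) and 3 (3), FC arrays into batches 2 (4) and 3 (2), and NH arrays into batches 1 (6), 2 (3) and 3 (1). The planned test of levels between tissues was not run because the scales differ. Arrays of a tissue correlated at 0.982 to 0.999 and 0.987 to 0.998, and none were identical. The number of arrays limits the precision. The fits were tested on simulated data.

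The members and lists were chosen with earlier results of these data known. Values are given for 16 core genes, for the 3 genes with the smallest p in each arm comparison and batch test, for the 8 with the largest tissue difference, and for those whose probe sets disagree in sign by more than 0.2. Other genes were named after their values were seen. Alternatives were other filters, a pseudocount of 16, centring, array weights, no or random batch, single batches, averaged probe sets and leaving out arrays.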

Additional observations from a re-analysis of the deposited data

Results flagged for a closer look

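In 180 groups of 6 to 10 arrays, formed by gene, tissue and arm, 20 had 1 array far from the others by Dixon's criterion. Chance alone meets it in about 1 group in 20 where all arrays of a group share a level and a spread. These groups mixed processing batches, so that rate need not hold for them. All values are log2 intensities.

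Of the 10 in hippocampus, 4 concerned NH replicate 100, of batch 4. That array was lowest for Syt1 at 7.57 and for Syt11 at 7.85, and highest for Syt2 at 7.27 and for Napa at 9.63. CS replicate 109, also of batch 4, was lowest for Syt1 at 7.61 and for Snap25 at 11.01. FC replicate 43 was lowest for Stx1a at 7.48 and for Rab3ip at 6.05. Rab31 was lowest in NH replicate 65 at 7.09, and Vamp2 in FC replicate 55 at 10.90.

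In amygdala CS replicate 21523 was lowest for Dnm1 at 11.30, for Syn2 at 9.06 and for Vamp2 at 10.47. CS replicate 23139 was highest for Stxbp3 at 5.17 and for Stx6 at 6.49. Stx2 was highest in NH replicate 28892 at 8.19, Syn2 in NH replicate 3142153 at 9.48 and Vamp1 in FC replicate 3144146 at 7.37. Napa was lowest in NH replicate 16768 at 8.37, and Stx8 in NH replicate 299141 at 6.20. NH replicate 3142153 was the only NH array of batch 3, where Syn2 was highest in the batch test. NH replicate 16768 was of batch 1, where Napa was lowest in that test. The part of batch in the flags was not tested.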

How the results depend on the processing

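In amygdala FC minus NH, 5 release genes passed with array weights (Rab31, Cplx2, Syt5, Rab3ip and Cplx1), where 911 of all probe sets did (12.2%), and 2 with no batch term (Syt5 at 0.27 and Syt11 at 0.36), where 211 did (2.83%). The cause was not tested for the weights; without the term, batch 1 with its NH arrays enters the difference. With NH arrays only, fewer arrays were compared, and the batch tests passed 1 gene in hippocampus and 4 in amygdala, while 10 genes had separate tissue percentiles, against 10.2% of all genes (Rab35, Vamp4 and Sytl4 higher in amygdala, and Rab3ip, Napa and Stx6 higher in hippocampus, were added). Leaving out single arrays gave 0 to 0 genes in each of the 6 arm comparisons, and leaving out the 3 arrays lowest for Syt1, chosen after seeing the data, left the tissue count at 4. Of 191 recomputed counts of genes 186 were equal to the reported value or within 1.5 times of it. Many of these were 0 before and after, from arm comparisons where almost no probe set passed. Such counts had little room to move, so the 186 is no measure of stability. Of 492 recomputed log2 differences of single genes 8 changed sign, none of them past the threshold before or after. In hippocampus without NH replicate 100 Syt11 went to -0.047 for CS minus NH (single arrays left out gave -0.047 to 0.50) and -0.0027 for FC minus NH (-0.0027 to 0.50), and in batch 6 alone Rab35 went to -0.0032 for FC minus NH, and Rab34 to -0.031 and Bsn to -0.17 for FC minus CS. In amygdala CS minus NH Vamp1 went to -0.054 in batch 3 alone and Syt7 to 0.017 with no batch term, and Rab31 went to -0.010 for FC minus CS with its probe sets averaged. The cause of these was not tested. Another 11 moved by more than the spread with the same sign, and 3 passed the threshold. No paired analysis was possible because within a tissue the arms share no replicate number. Every difference from NH rests on few NH arrays that shared a batch with another arm, dim probe sets are measured close to background, and percentiles near the top of the array compress differences.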
